A study of Mus musculus with 36 samples.

Results

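The genes described here were 7 small heat shock protein genes, Hspb1, Hspb2, Hspb3, Hspb6, Hspb7, Hspb8 and Cryab, and the co-chaperone gene Bag3. They were taken by symbol, and these 8 genes were found among the 55291 gene symbols measured in each of 36 RNA-Seq libraries. All 8 passed the filter on low counts and were among the 19231 genes tested.

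CUG960 mice model the heart disease of myotonic dystrophy type 1 (DM1). Every animal, controls included, was homozygous for TREDT960I, a human DMPK transgene with expanded CTG repeats under a TRE promoter, and hemizygous for MHCrtTA. The second transgene makes the doxycycline (dox) dependent activator from the cardiomyocyte-specific α-MHC promoter, so that the CUG repeat RNA is induced in cardiomyocytes and not in the other cells of the heart. The +dox cohort received dox from postnatal day 1, the –dox cohort received none, and the +/–dox cohort was taken off dox at 9 weeks. The remaining cohorts were kept on dox and at 9 weeks received AAV9 vectors for tagged human MBNL1, for MBNL2 or for both (MBNL1+MBNL2), expressed from the human TNNT2 promoter. All mice were 21 weeks old, 12 weeks after vector delivery or dox withdrawal. Ventricles and atria were sequenced separately, with 3 libraries for each of 6 cohorts in each of 2 chambers. A +dox cohort given a control vector was not analysed here, so the vector and the MBNL protein it carries cannot be told apart.

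Small heat shock proteins share an α-crystallin domain and hold unfolding proteins in a soluble state without using ATP. In striated muscle they sit on the Z-disc, desmin, titin and actin, and Bag3 links the partners HSPB8 and HSPB6 to Hsp70 so that damaged filament proteins are released or passed to autophagy. HSPB2 was first described as a binding protein of the DMPK kinase and assembles with HSPB3. Mutations of CRYAB and BAG3 cause myofibrillar myopathy and cardiomyopathy.

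Heat shock factors bind repeats of a short unit in the promoters of stress-inducible genes, and 4 promoters of the members that hold such a repeat are printed to show where it lies. RefSeq promoters of build GRCm38.p6, running from 250 bases before to 50 after a start site, were matched for 6 of the 8 genes, Hspb6 with a pair of start sites, and for neither Hspb2 nor Cryab. In the sequences capitals mark the 8 bases of a heat shock element with 2 units head to head, GAANNTTC, which reads the same on both strands.
Hspb1 promoter, chr5:135887669-135887968, plus strand: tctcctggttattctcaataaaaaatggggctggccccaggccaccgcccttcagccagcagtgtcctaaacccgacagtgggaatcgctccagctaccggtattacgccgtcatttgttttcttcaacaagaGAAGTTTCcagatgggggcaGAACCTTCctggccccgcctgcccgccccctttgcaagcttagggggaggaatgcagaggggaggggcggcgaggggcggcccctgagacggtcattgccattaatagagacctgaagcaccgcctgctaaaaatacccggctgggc
Hspb6 promoter, chr7:30553051-30553350, plus strand: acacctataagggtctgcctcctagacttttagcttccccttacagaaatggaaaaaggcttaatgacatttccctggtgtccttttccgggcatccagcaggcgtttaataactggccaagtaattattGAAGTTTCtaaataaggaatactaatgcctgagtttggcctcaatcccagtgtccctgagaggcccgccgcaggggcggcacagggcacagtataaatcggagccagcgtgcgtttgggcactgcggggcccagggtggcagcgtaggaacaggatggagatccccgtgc
Hspb8 promoter, chr5:116422815-116423114, minus strand: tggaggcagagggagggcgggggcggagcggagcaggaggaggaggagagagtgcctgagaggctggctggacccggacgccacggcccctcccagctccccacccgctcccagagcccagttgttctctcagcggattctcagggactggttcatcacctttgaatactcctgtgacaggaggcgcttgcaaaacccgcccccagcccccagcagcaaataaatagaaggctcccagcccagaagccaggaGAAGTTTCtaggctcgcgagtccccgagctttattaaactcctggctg
Bag3 promoter, chr7:128523333-128523632, plus strand: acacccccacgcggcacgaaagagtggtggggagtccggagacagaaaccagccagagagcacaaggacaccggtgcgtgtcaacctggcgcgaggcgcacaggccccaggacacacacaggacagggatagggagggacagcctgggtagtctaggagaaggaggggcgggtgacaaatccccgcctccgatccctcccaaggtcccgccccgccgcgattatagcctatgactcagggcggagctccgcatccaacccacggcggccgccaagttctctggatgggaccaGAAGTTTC

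GAANNTTC was found at 2 places in the Hspb1 promoter and at 1 place each in the Hspb3, Hspb8 and Bag3 promoters and before the downstream start site of Hspb6. It was not found in the Hspb7 promoter or before the upstream start site of Hspb6. This motif was present in 7.86% of 32851 promoters of the same length. In the Hspb8 and Bag3 sequences the match lay after the start site, within the transcribed part. The longer form, in which another unit adjoins these, was present in 0.603% of all promoters and in none of these. The form with 2 units tail to tail, TTCNNGAA, was present in 8.52% of all promoters and also in none of the promoters of the members. A match is only a match of letters.

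The genes lie on chromosomes 4, 5, 7, 9 and 13 of the mouse genome (GRCm38, GENCODE annotation). Hspb2 (chr9:50751078-50752354, minus strand) and Cryab (chr9:50751325-50756636, plus strand) each start inside the other and overlap over 1030 bases. They share 252 exon bases, 30.2% of the exons of Hspb2 and 17% of those of Cryab. The study used a stranded library kit, but the strand setting of the counting is not given in the sources used here. Reads from the shared bases may have been divided between the genes, so the levels of Hspb2 in particular are uncertain. The others are Hspb1 (chr5:135887919-135889563, plus strand), Hspb3 (chr13:113662896-113663676, minus strand), Hspb6 (chr7:30552178-30555443, plus strand), Hspb7 (chr4:141420779-141425311, plus strand), Hspb8 (chr5:116408491-116422864, minus strand) and Bag3 (chr7:128523616-128546981, plus strand).

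The libraries held 55031987 to 97091184 estimated counts. Mitochondrially encoded transcripts made up 14.4% to 17.9% of the counts in ventricles and 8.91% to 10.3% in atria. One ventricular library, MBNL1 replicate 1, had 16885 genes above 0, where the highest library had 24041. All 4 ventricular cardiomyocyte markers were higher in the ventricles and all 5 atrial markers higher in the atria in –dox and in +dox mice, as the tissue labels have it. Whole tissue was sequenced, so that fewer cells of a type and less RNA per cell cannot be told apart. By the library names in the labels, replicate 3 of each cohort came from another library set than replicates 1 and 2, except that all MBNL1+MBNL2 libraries were of the set of the replicates 3. The study's sample list names a female mouse in each cohort but MBNL1+MBNL2. Xist stood at 13.6 to 41.2 TPM in the 10 libraries of replicate 3 of the other cohorts and at 0.15 TPM or less in the remaining 26, which held 70.6 to 99.6 TPM of 4 Y-linked genes together. Set and sex therefore cannot be told apart in those cohorts, and the MBNL1+MBNL2 cohort differed from each other cohort in the balance of both. The labels call the replicates biological. In the fit of all libraries the p-values rest on the spread between replicates, pooled over all cohorts and both chambers. They do not rest on the 3 samples of a group alone.

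On the TPM scale, a level per transcript length that can be compared between genes, Cryab was the most abundant member in every library. Cryab encodes αB-crystallin, the chaperone of desmin. Its ventricular TPM had a median of 2810 (range 2246 to 3325), between rank 31 and rank 39 among all genes in each library. Hspb7, a cardiovascular small heat shock protein that binds thin filaments, came second in every library, with a median of 2089 TPM in ventricles and 1446 TPM in atria. The third was Hspb6 in all ventricular libraries, with a median of 808 TPM against 383 TPM in atria. Hspb8 had a median of 388 TPM in ventricles and 315 TPM in atria, and Hspb1, the actin-binding Hsp27, 220 TPM and 338 TPM. Bag3 was close to 140 TPM in each chamber (medians 139 and 140). Hspb2 stood at 119 TPM and 183 TPM. Hspb3 was the lowest member in every library, at 10.6 to 24.4 TPM.

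The order of the members in ventricles was the same in all libraries except for Hspb2 and Bag3, which exchanged places 6 and 7. In atria Hspb6, Hspb8 and Hspb1 exchanged places 3, 4 and 5. By comparison the stress-inducible Hsp70 genes Hspa1a and Hspa1b, which cells make when proteins unfold, were low in these hearts, with ventricular TPM of 0.55 to 2.65 for Hspa1a and 0.87 to 4.61 for Hspa1b.

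**Figure D1:**
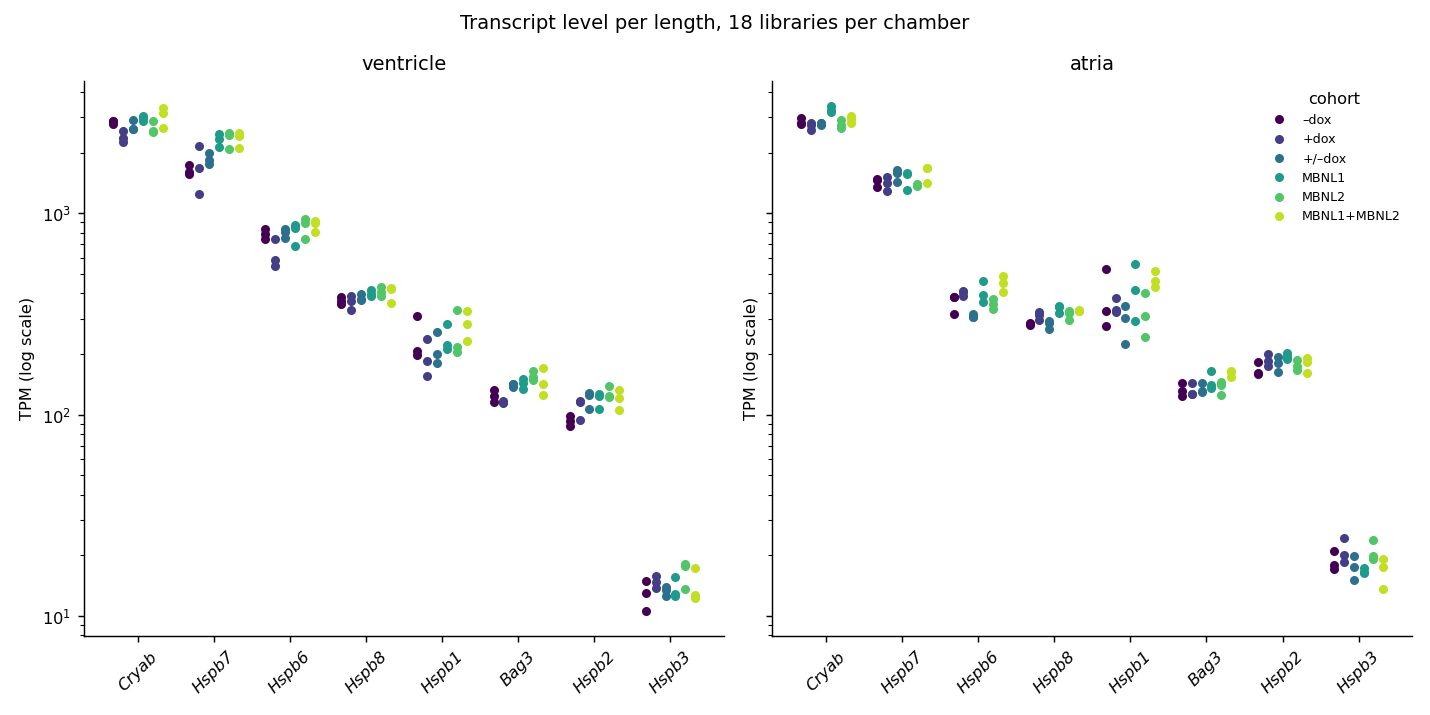
TPM of the 8 genes on a log axis in the 18 ventricular (left) and 18 atrial (right) libraries, 1 point per library, coloured by cohort. Cryab is highest and Hspb3 lowest in every library.

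The first comparison asks whether induction of CUG repeat RNA was accompanied by another level of these chaperones. Levels of 1 gene across libraries are given below as normalised CPM, counts scaled to the library size. A gene was called where edgeR's quasi-likelihood test gave a Benjamini-Hochberg adjusted p below 0.05 over all tested genes and a fold of at least 1.5. In ventricles 0 of 8 members were called between –dox and +dox mice, where 7.6% of all genes were called. DESeq2 also called 0 of 8. In the edgeR test 2 members had an unadjusted p below 0.05, beside 6269 of the 19231 tested genes. Between +/–dox and +dox ventricles 0 of 8 were called by either tool against 6.6% of all genes. There 3 members had an unadjusted p below 0.05, beside 6367 of the 19231 tested genes. The median log2 difference of the members was 0.10 in –dox and 0.17 in +/–dox ventricles, against 0.01 and 0.00 over all tested genes. Without the fold threshold 2 members passed in –dox ventricles, Cryab and Hspb6, where 20.9% of all genes passed, and 3 passed in +/–dox ventricles, the same pair and Bag3, where 21.8% passed.

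Cryab was modestly lower in the ventricles of +dox mice than in those of –dox and +/–dox mice. The ventricular –dox libraries held 1606, 1652 and 1554 CPM and the +dox libraries 1401, 1335 and 1187 CPM. The +/–dox libraries held 1481, 1511 and 1554 CPM. Both cohorts lay above every +dox library. The mean was 1604 ± 49.3 CPM (SD, n = 3) in –dox and 1308 ± 109.6 CPM (SD, n = 3) in +dox mice, a log2 difference of 0.29 ± 0.07 (SE, edgeR adjusted p = 0.00321). In +/–dox mice it was 0.21 ± 0.07 (SE, edgeR adjusted p = 0.0307). The –dox difference kept an adjusted p below 0.05 when any 1 library was left out, with the highest at 0.0366. The +/–dox difference did not. Without the lowest +dox library, replicate 3, it was 0.15 (edgeR adjusted p = 0.202), and without +dox replicate 2 or any 1 of the +/–dox libraries it was 0.19 to 0.23 (edgeR adjusted p = 0.0522 to 0.103). With all libraries it also lost the threshold with no filter on low counts (edgeR adjusted p = 0.0612) and with library totals as the scaling, at 0.14 (edgeR adjusted p = 0.103).

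Hspb6, also called Hsp20, is a small heat shock protein that is phosphorylated on β-adrenergic stimulation and binds Bag3. Its ventricular levels were 801.3, 899.1 and 780.0 CPM in –dox mice and 760.1, 623.2 and 528.3 CPM in +dox mice. They were 792.9, 857.4 and 813.7 CPM in +/–dox mice. The groups did not overlap, and the +dox libraries were more widely spread than the others. The log2 difference from +dox was 0.38 ± 0.12 (SE, edgeR adjusted p = 0.0262) in –dox and 0.37 ± 0.12 (SE, edgeR adjusted p = 0.0291) in +/–dox mice. Without ventricular +dox replicate 3 the values were 0.26 (edgeR adjusted p = 0.176) and 0.25 (edgeR adjusted p = 0.197), below the value with all libraries by over 0.1. The adjusted p also left the threshold without +dox replicate 2 (0.0768 and 0.0816), without –dox replicate 2 (0.111), or without any 1 of the +/–dox libraries (0.0513 to 0.1). With all libraries it was 0.0695 and 0.0752 with no filter on low counts, and 0.0522 for +/–dox with library totals.

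Among the ventricular cohorts Bag3 was lowest in +dox mice. The 3 libraries held 247.3, 254.2 and 223.4 CPM, against 271.4, 257.4 and 266.1 CPM in –dox and 306.5, 295.8 and 282.6 CPM in +/–dox mice. All 6 control libraries were above the +dox libraries, by a narrow margin for –dox. The log2 difference was 0.13 ± 0.08 (SE, edgeR adjusted p = 0.27) for –dox and 0.29 ± 0.08 (SE, edgeR adjusted p = 0.0105) for +/–dox. Without ventricular +dox replicate 3 the +/–dox value was 0.23 (edgeR adjusted p = 0.0716), and without +/–dox replicate 1 it was 0.26 (edgeR adjusted p = 0.0535).

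That library also stood apart for Hspb7. Ventricular +dox mice had 4974, 4014 and 2670 CPM, which spans the –dox levels of 3745, 3891 and 3791 CPM and the +/–dox levels of 4116, 4685 and 4007 CPM. The coefficient of variation of Hspb7 was 29.8% in +dox ventricles and was the lowest of the 6 cohorts in –dox ventricles. Its log2 difference between –dox and +dox was -0.03, with a 95% interval of -0.31 to 0.25. Replicate 3 belonged to the other library set and was female. With the set as a term in the model, the –dox difference was 0.38 for Hspb6 (edgeR adjusted p = 0.00434) and 0.30 for Cryab (edgeR adjusted p = 0.000528). The –dox and +dox cohorts have the same balance of sets, so the term could hardly move these differences. It does not address a single low library.

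**Figure D2:**
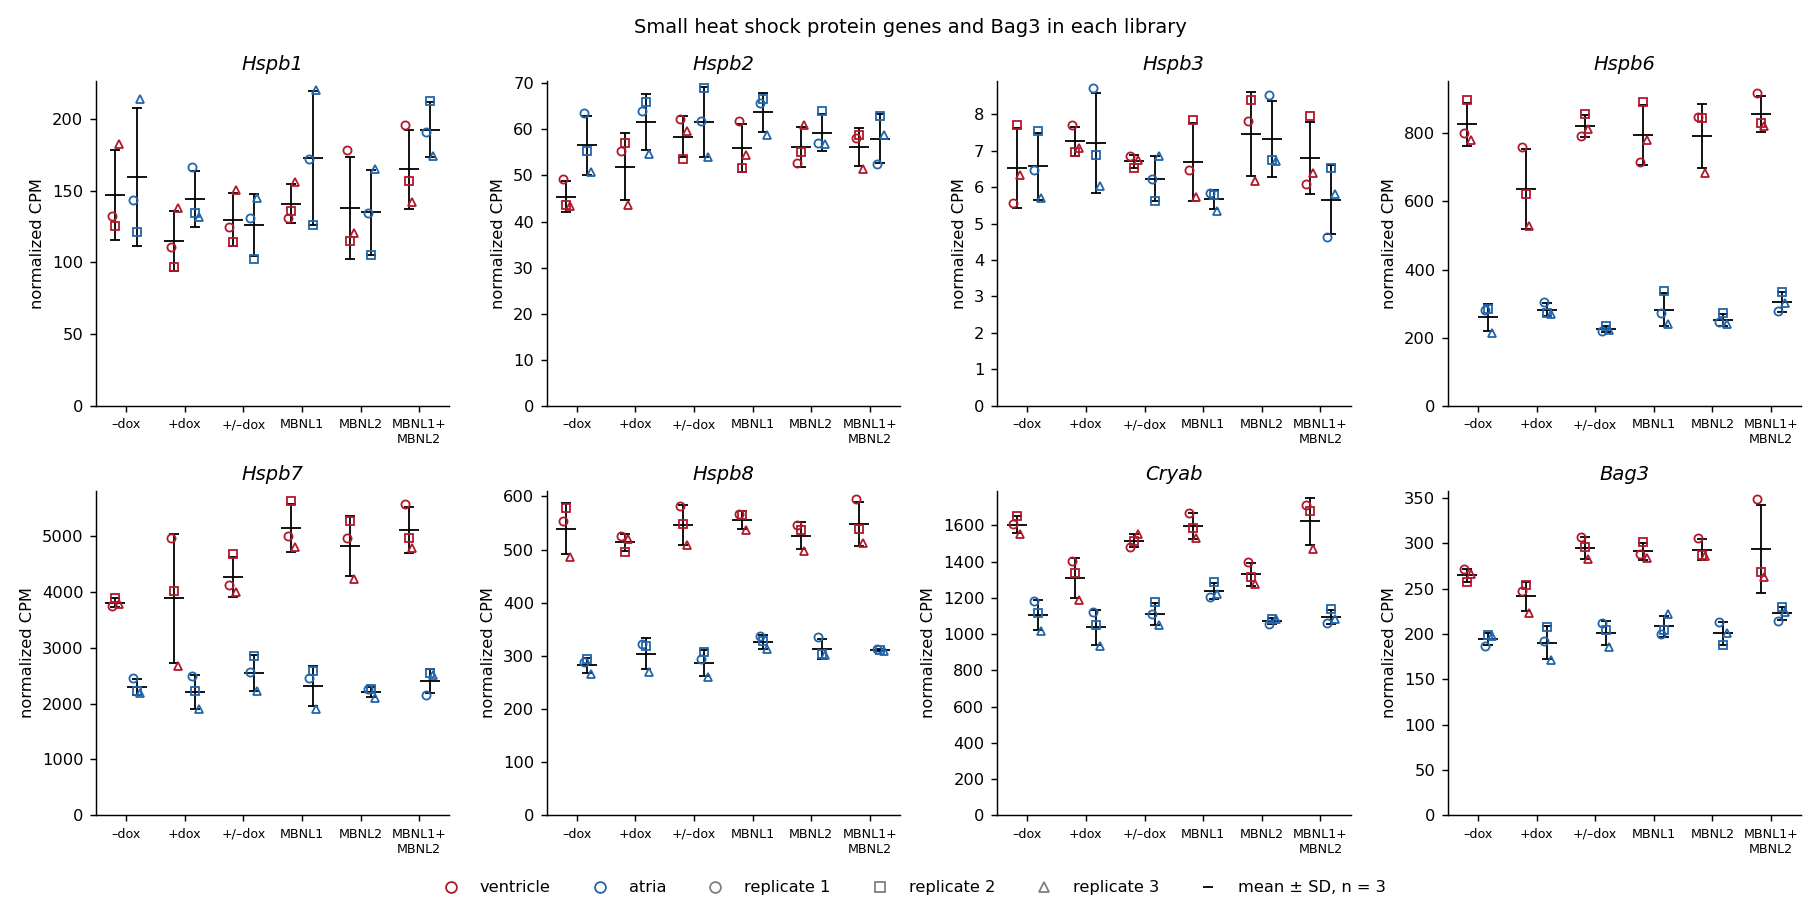
Normalised CPM of each gene on a linear axis from 0, in ventricles (red) and atria (blue) of the 6 cohorts. Symbols are replicates 1 to 3 and black marks the mean ± SD (n = 3). Among the ventricular libraries, +dox replicate 3 is the lowest for Hspb7 at 2670 CPM and for Hspb6 at 528.3 CPM.

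Hspb8, Hspb2 and Hspb3 did not pass the test in these ventricular comparisons. Hspb8, the direct Bag3 partner in chaperone-assisted selective autophagy, held 553.7, 578.3 and 486.3 CPM in –dox mice and 524.8, 495.2 and 520.2 CPM in +dox mice. Its 95% interval for –dox against +dox ran from -0.08 to 0.22 on the log2 scale. Hspb2 held 49.27, 43.55 and 43.44 CPM in –dox mice, 55.24, 56.99 and 43.56 CPM in +dox mice and 62.19, 53.57 and 59.55 CPM in +/–dox mice. Its –dox mean was below and its +/–dox mean above that of +dox mice, at -0.19 (edgeR adjusted p = 0.208, 0.0467 without ventricular +dox replicate 3 and 0.0353 with library totals) and 0.17 on the log2 scale. Between –dox and +/–dox mice the libraries of Hspb2 did not overlap, with a log2 difference of -0.36 ± 0.11 (SE, edgeR adjusted p = 0.299). Hspb3, which makes a muscle-restricted complex with HSPB2, lay between 5.56 and 8.39 CPM in all ventricular libraries.

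Hspb1 varied widely between libraries. In ventricles it held 132.6, 125.5 and 182.6 CPM in –dox mice, 110.4, 96.74 and 137.5 CPM in +dox mice and 124.3, 114.2 and 150.1 CPM in +/–dox mice. In each of these cohorts replicate 3, of the other library set and female, was the highest. The same held in ventricles with MBNL1 but not with MBNL2, and in the atria of these cohorts except +dox. The part of set or sex in this spread was not tested. The groups overlapped, and the standard error of 0.23 on the log2 scale was the largest of the 8 genes. The log2 difference for –dox was 0.35, with a 95% interval of -0.09 to 0.80, which includes folds above 1.5.

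Summed TPM of marker genes moved with some of these groups. All 6 endothelial markers together came to 179 to 189 TPM in +dox ventricles, below the 218 to 276 TPM of –dox and the 225 to 250 TPM of +/–dox ventricles. The 6 fibroblast markers came to 1144 to 1290 TPM in +dox and 1153 to 1315 TPM in –dox ventricles, which overlap, and to 1513 to 1670 TPM in +/–dox ventricles. The 6 cardiomyocyte markers came to 26084 to 27904 TPM in +dox, 27266 to 29466 TPM in –dox and 31228 to 32818 TPM in +/–dox ventricles. The 8 skeletal muscle markers came to 793 to 856 TPM in +dox, 885 to 1192 TPM in –dox and 1040 to 1251 TPM in +/–dox ventricles, without overlap with +dox. Nearly all of that sum was Ckm, a creatine kinase that heart muscle also makes, at 792 to 855 TPM in +dox ventricles, where Tnnt3 of fast skeletal muscle stood at 0.07 to 0.16 TPM. The smooth muscle and pericyte markers came to 305 to 351 TPM in –dox and 230 to 302 TPM in +dox ventricles, without overlap. The mitochondrial share of the counts was 16.1% to 17.9% in –dox and 14.9% to 15.9% in +dox ventricles, also without overlap. In both of these +/–dox overlapped with +dox. The part of these shifts in the values above was not tested.

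In atria no member passed either threshold in the test described above. For –dox against +dox 0 of 8 were called by edgeR or DESeq2 where 5.23% of all genes were called. There 0 members had an unadjusted p below 0.05, beside 5568 of the 19231 tested genes. For +/–dox against +dox 0 of 8 were called by either tool against 3.99%. An unadjusted p below 0.05 was found for 4842 of the 19231 tested genes and for 1 member. That member was Hspb6, with 303.5, 272.5 and 268.5 CPM in +dox and 221.0, 235.5 and 221.2 CPM in +/–dox atria. The groups did not overlap, and the log2 difference of -0.32 ± 0.12 (SE, edgeR adjusted p = 0.0877) had the opposite sign to that in ventricles. It passed the adjusted p with the replicate number as a block (0.0282), with the library set as a term (0.0264), with library totals (0.0153) and on TPM (limma adjusted p = 0.0157), at -0.32 to -0.38. The cardiomyocyte markers came to 26688 to 27611 TPM in +dox and 29604 to 31505 TPM in +/–dox atria, the atrial cardiomyocyte markers to 20920 to 23502 TPM and 24982 to 27837 TPM, the macrophage markers to 239 to 298 TPM and 171 to 223 TPM, and the skeletal muscle markers to 498 to 584 TPM and 656 to 756 TPM. Their part in the result was not tested. The atrial –dox libraries held 282.4, 283.5 and 214.0 CPM of Hspb6 and overlapped with +dox. Cryab differed by 0.09 in –dox and 0.10 in +/–dox atria on the log2 scale, and Bag3 by 0.03 and 0.08.

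The second comparison asks how the vectors stood against untreated +dox mice. In ventricles 0 of 8 members were called in the MBNL1 cohort where 2.66% of all genes were called. The count was 0 of 8 against 1.52% in the MBNL2 cohort and 0 of 8 against 2.65% in the MBNL1+MBNL2 cohort. DESeq2 called 0 of 8 in each. In the edgeR test 4, 3 and 5 members had an unadjusted p below 0.05. Of the 19231 tested genes 4733, 4294 and 4254 did so. Without the fold threshold 2 members passed in MBNL1 ventricles (8.95% of all genes), 1 in MBNL2 ventricles (7.43%) and 3 in MBNL1+MBNL2 ventricles (8.34%), each of them higher than in +dox mice. The median log2 difference over the members was 0.28, 0.19 and 0.29, against -0.04, 0.00 and -0.01 over all tested genes. These comparisons and those of –dox and +/–dox share the same 3 +dox libraries.

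Bag3 passed the adjusted p in all 3 vector cohorts. Its ventricular levels were 287.9, 301.7 and 284.1 CPM with MBNL1, 306.0, 287.1 and 286.3 CPM with MBNL2 and 349.4, 267.9 and 262.7 CPM with MBNL1+MBNL2. All 9 libraries were above the +dox libraries, which ended at 254.2 CPM. The log2 differences were 0.27 ± 0.08 (SE, edgeR adjusted p = 0.0346), 0.28 ± 0.08 (SE, edgeR adjusted p = 0.0337) and 0.28 ± 0.08 (SE, edgeR adjusted p = 0.0293). Without ventricular +dox replicate 3 they were 0.21, 0.22 and 0.22, with edgeR adjusted p of 0.162, 0.18 and 0.155. Without replicate 1 of the MBNL1+MBNL2 cohort, the highest of all Bag3 libraries, that cohort's difference was 0.13 (edgeR adjusted p = 0.392). The adjusted p was also above 0.05 without +dox replicate 1 (0.0676, 0.0649 and 0.0639), without MBNL1 replicate 1 or 2 (0.0669 and 0.0981) and without any 1 of the MBNL2 libraries (0.0603 to 0.135). When only the ventricular libraries were fitted it was 0.0814, 0.0795 and 0.0615, and with no filter on low counts it was 0.0519 for MBNL1.

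Cryab passed the adjusted p with MBNL1 and with both vectors. It held 1670, 1584 and 1529 CPM with MBNL1 and 1710, 1681 and 1472 CPM with MBNL1+MBNL2, all above the +dox libraries. With MBNL2 it held 1399, 1313 and 1275 CPM, within the +dox range. The log2 difference from +dox was 0.29 ± 0.07 (SE, edgeR adjusted p = 0.0114) with MBNL1, 0.02 ± 0.07 (SE, edgeR adjusted p = 0.901) with MBNL2 and 0.31 ± 0.07 (SE, edgeR adjusted p = 0.00559) with both. Without ventricular +dox replicate 3 the MBNL1 value was 0.22 (edgeR adjusted p = 0.0903) and the combined value 0.24 (edgeR adjusted p = 0.0584), and without replicate 1 of either cohort the values were 0.25 (edgeR adjusted p = 0.0573) and 0.27 (edgeR adjusted p = 0.057). The MBNL2 libraries also lay below all +/–dox libraries, by -0.19 ± 0.07 (SE, edgeR adjusted p = 0.126), which passed with the replicate block (0.0468) or the library set (0.049) as a term but stood at -0.07 with library totals and -0.04 on TPM. The difference between MBNL1 and MBNL2 mice was not tested directly.

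Hspb6 was the third. It held 717.0, 891.5 and 780.4 CPM with MBNL1, 849.3, 846.1 and 684.9 CPM with MBNL2 and 918.5, 830.0 and 821.6 CPM with both vectors. The single-vector cohorts overlapped with +dox and the combined cohort did not. The log2 differences were 0.32 (edgeR adjusted p = 0.0915), 0.32 (edgeR adjusted p = 0.108) and 0.43 ± 0.12 (SE, edgeR adjusted p = 0.026). Without ventricular +dox replicate 3 the combined value was 0.31 (edgeR adjusted p = 0.174), and its adjusted p was 0.0757 without +dox replicate 2 and 0.147 and 0.0519 without MBNL1+MBNL2 replicates 1 and 2. With no filter on low counts it was 0.0672. The single vectors passed without +dox replicate 1, at 0.47 (edgeR adjusted p = 0.0297) and 0.46 (edgeR adjusted p = 0.035), and without +dox replicate 3 both were at 0.20 (edgeR adjusted p = 0.383 and 0.461). With all libraries they passed with the replicate block (edgeR adjusted p = 0.031 and 0.0409), with the library set (edgeR adjusted p = 0.0252 and 0.0343) and on TPM (limma adjusted p = 0.0447 and 0.0101), at 0.32 to 0.46.

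Hspb7 overlapped between the cohorts. Its vector cohorts held 4995, 5629 and 4807 CPM, 4958, 5272 and 4225 CPM, and 5569, 4964 and 4786 CPM, which overlap with the highest +dox library of 4974 CPM. The log2 differences of 0.40, 0.31 and 0.39 had edgeR adjusted p of 0.0734, 0.195 and 0.0891. Without that library, ventricular +dox replicate 1, they were 0.62, 0.53 and 0.61, with edgeR adjusted p of 0.0111, 0.0319 and 0.0101, and the first and the last would be called. Without the lowest, +dox replicate 3, they were 0.19, 0.10 and 0.18, with edgeR adjusted p of 0.404, 0.767 and 0.481. With all libraries and the library set as a term they were 0.43, 0.33 and 0.58 (edgeR adjusted p = 0.00907, 0.0461 and 0.00101), and on TPM 0.48 to 0.50 (limma adjusted p = 0.0126 to 0.0175). DESeq2 and the replicate block passed Hspb7 with MBNL1 (0.0325 and 0.0186) and with both vectors (0.0366 and 0.0215).

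The remaining members did not pass. Hspb1 held 195.6, 156.7 and 141.8 CPM in MBNL1+MBNL2 ventricles, all above +dox, with a log2 difference of 0.52 ± 0.23 (SE, edgeR adjusted p = 0.171). These libraries were all of the set of the replicates 3, and the lowest difference over the settings was 0.32. Hspb8 differed by 0.04 to 0.11 over the 5 ventricular comparisons with +dox, and with the library set as a term Hspb8 passed the adjusted p with both vectors (0.0462). Marker sums differed here too, with 1364 to 2004 TPM of the fibroblast markers and 191 to 249 TPM of the endothelial markers in the ventricles of the 3 vector cohorts, above the +dox values. Ventricular cardiomyocyte markers came to 21674 to 23852 TPM with MBNL2 and 21440 to 24029 TPM with both vectors, below the 24519 to 27746 TPM of +dox. Skeletal muscle markers came to 890 to 1177 TPM with MBNL1 and 926 to 1134 TPM with MBNL2, above the 793 to 856 TPM of +dox. For each of these sums the remaining vector cohort overlapped with +dox. Their part in the result was not tested.

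In atria 0 of 8 members were called with MBNL1, MBNL2 or both, where 0.13%, 0.0052% and 0.26% of all genes were called. DESeq2 also called none. In the edgeR test 2, 0 and 2 members had an unadjusted p below 0.05. Of the 19231 tested genes 1521, 831 and 1924 did so. Cryab held 1204, 1285 and 1221 CPM with MBNL1 and 1123, 1049 and 936.5 CPM in +dox atria, without overlap, a log2 difference of 0.26 ± 0.07 (SE, edgeR adjusted p = 0.138). The adjusted p of Cryab was 0.0357 by DESeq2, 0.0352 with the replicate block, 0.0364 with the library set and 0.0381 with library totals, under the fold threshold in each. In MBNL1 atria the skeletal muscle markers came to 609 to 726 TPM, against 498 to 584 TPM in +dox atria. The smooth muscle and pericyte markers came to 239 to 338 TPM, against 192 to 236 TPM. The part of these sums in the Cryab value was not tested. Bag3 held 214.8, 229.5 and 224.3 CPM with both vectors and 192.5, 207.8 and 171.4 CPM in +dox atria, a difference of 0.23 ± 0.08 (SE, edgeR adjusted p = 0.283). Hspb3 did not pass the test, at a log2 difference from +dox of -0.35 with MBNL1 (edgeR adjusted p = 0.549) and of -0.35 with both vectors (edgeR adjusted p = 0.432), and of -0.19 in each without atrial +dox replicate 1.

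**Figure D3:**
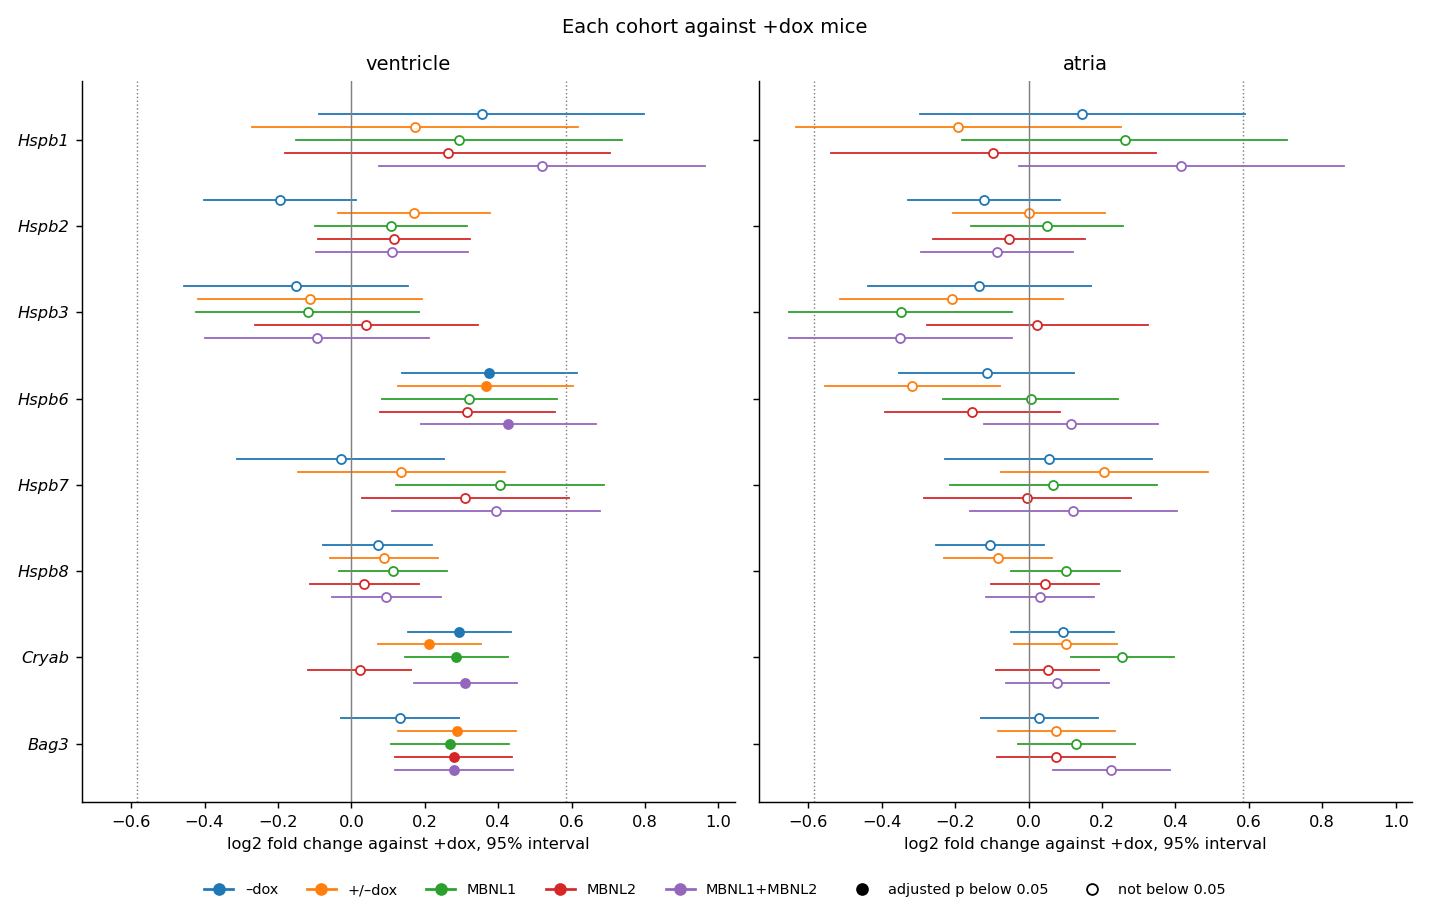
Log2 fold change of each gene against +dox mice in ventricles (left) and atria (right), with bars for the 95% interval, 1 colour per cohort. Filled points have an adjusted p below 0.05 and dotted lines mark a fold of 1.5. The filled points are Hspb6, Cryab and Bag3 in ventricles, between 0.21 and 0.43, and there is none in atria.

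The vector cohorts and –dox mice were also compared with +/–dox mice, in which the repeats had been turned off. In ventricles 0 of 8 were called in –dox mice (0.0312% of all genes), with MBNL1 (0.868%), with MBNL2 (1.57%) and with both (0.53%). In atria 0 of 8 were called in the same order, beside 0.0104%, 1.21%, 3.24% and 1.71% of all genes. DESeq2 called 0 of 8 in each of these 8 comparisons. In the edgeR test between 0 and 3 members had an unadjusted p below 0.05, beside 907 to 4631 of the 19231 tested genes. Hspb6 in atria with both vectors passed the adjusted p without the fold, as 1 member where 6.86% of all genes passed. It held 278.0, 334.8 and 302.0 CPM, above the 221.0 to 235.5 CPM of +/–dox atria, a log2 difference of 0.43 ± 0.12 (SE, edgeR adjusted p = 0.0265). Leaving out MBNL1+MBNL2 replicate 2 or 3 or any 1 of the +/–dox libraries gave 0.36 to 0.48 with an adjusted p of 0.0503 to 0.161, and no filter on low counts gave 0.0608. Hspb1 in the same comparison held 190.6, 212.2 and 174.2 CPM against 130.9, 102.6 and 145.1 CPM, a difference of 0.61 ± 0.23 (SE, edgeR adjusted p = 0.112) whose groups did not overlap. With the replicate block it was 0.64 (edgeR adjusted p = 0.0313) and would be called, and with the library set as a term it was 0.41 (edgeR adjusted p = 0.194). Marker sums stood apart in the same comparison, with 24632 to 27136 TPM of the cardiomyocyte markers against 29604 to 31505 TPM in +/–dox atria, 21128 to 22203 TPM of the atrial cardiomyocyte markers against 24982 to 27837 TPM, and 230 to 334 TPM of the macrophage markers against 171 to 223 TPM. So did the mitochondrial shares of the counts, with 8.91% to 9.44% against 9.57% to 9.88% in +/–dox atria. Their part in the result was not tested. Under other settings further atrial members passed the adjusted p without the fold. With MBNL1 these were Hspb6 and Hspb8 with the library set as a term, and Hspb6, Hspb8 and Cryab with library totals and on TPM, at 0.19 to 0.39, and with the replicate block Hspb8. With both vectors Hspb8 passed with the library set, library totals and on TPM, at 0.19 to 0.22, and Bag3 with library totals. With MBNL2 Hspb8 passed with library totals. In ventricles Hspb7 passed with both vectors with the library set as a term, at 0.42 (edgeR adjusted p = 0.0208). The shares of all genes passing under these other settings are not given here, and these passes are only a description. In the main fit, without the fold, 4.6%, 11% and 6.86% of all genes passed in atria with MBNL1, MBNL2 and both vectors. In ventricles with both vectors 1.77% passed.

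When the 6 cohorts were ordered by their mean within a chamber, most neighbours overlapped. Neighbours stood apart for Bag3 in ventricles, where +dox was below –dox and –dox below MBNL1, and for Cryab in ventricles, where MBNL2 was below +/–dox. In atria they stood apart for Cryab, with +/–dox below MBNL1, and for Hspb6, with +/–dox below MBNL2. The +dox cohort had the lowest mean in ventricles for Hspb1, Hspb6, Hspb8, Cryab and Bag3. Of these, Hspb1 and Hspb8 overlapped with –dox and +/–dox mice and did not pass the test described above. The shares of all tested genes with such gaps, or with +dox lowest, are not given here, and these orders are only a description.

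The third comparison is between the chambers. In –dox mice 3 of 8 were called higher in ventricles where 11.2% of all genes were called higher, and 0 were called lower, where 13.7% of all genes were. In +dox mice the same 3 were called higher, Hspb6, Hspb7 and Hspb8, where 11.8% of all genes were, and 0 lower, beside 13.2%. Without the fold threshold 6 members passed in –dox mice (42.6% of all genes) and 5 in +dox mice (43.6%). Chamber values below come from fits that do not pair libraries by animal, unless the animal is named as a block. For ratios within an animal and for the block, libraries of a cohort with the same replicate number were taken as coming from 1 animal.

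Hspb6 had the widest difference. In –dox mice the ventricles held 801.3, 899.1 and 780.0 CPM and the atria 282.4, 283.5 and 214.0 CPM, 3.18-fold (log2 1.67 ± 0.12, SE, edgeR adjusted p = 2.09e-12). In +dox mice the fold was 2.26 (log2 1.18 ± 0.12, SE, edgeR adjusted p = 2.53e-09). Hspb8 was 1.91-fold higher in –dox ventricles (log2 0.93 ± 0.08, SE, edgeR adjusted p = 9.11e-12) and 1.69-fold higher in +dox ventricles. Hspb7 was 1.66-fold higher in –dox ventricles (log2 0.73 ± 0.14, SE, edgeR adjusted p = 0.000112) and 1.76-fold higher in +dox ventricles. No ventricular library of Hspb6 or Hspb8 overlapped with an atrial library of any cohort on this scale. On TPM Hspb8 overlapped, with 331 TPM in ventricular +dox replicate 2 and 348 TPM in atrial MBNL1 replicate 1.

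These sizes differed between settings. Library totals change the scaling alone, while the fit on TPM (limma) changes the scaling, the length adjustment and the test at once. With library totals in place of TMM factors the median log2 difference of all tested genes between the chambers moved from -0.03 to -0.35 in –dox and from 0.00 to -0.27 in +dox mice, and on TPM it was -0.32 and -0.30. On TPM 1 member was called higher and 2 lower in ventricles in each cohort, and on library totals 2 higher and 1 lower in –dox mice and 1 higher and 1 lower in +dox mice. The shares of all genes called under these settings are not given here, and the counts are only a description. Hspb6 was called higher in ventricles on each of the 3 scalings, with 1.35 and 0.91 on library totals and 1.13 and 0.63 on TPM. Hspb8 was higher with an adjusted p below 0.05 on each, but on TPM its values were 0.38 and 0.22, under the fold threshold. On library totals Hspb8 was at 0.61 in –dox mice and at 0.49 in +dox mice, where it too was under the fold threshold. Hspb7 was 0.19 (limma adjusted p = 0.185) and 0.24 (limma adjusted p = 0.0987) on TPM. Cryab was higher in ventricles by 0.54 and 0.34 on TMM-scaled counts, but stood at 0.00 and -0.19 on TPM, and Bag3 was higher by 0.45 and 0.34 but stood at -0.10 and -0.19 on TPM. Taken relative to the median of all genes on TPM, Cryab was at 0.32 and 0.11 and Bag3 at 0.22 and 0.11.

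Hspb2 and Hspb1 lay on the atrial side. Hspb2 differed by -0.32 ± 0.11 (SE, edgeR adjusted p = 0.0154) in –dox and by -0.24 ± 0.11 (SE, edgeR adjusted p = 0.0604) in +dox mice, and by -0.85 and -0.78 on TPM, where it would be called lower in ventricles. The –dox value lost its adjusted p without ventricular replicate 2 or 3 (0.0602 and 0.0588) or atrial replicate 1 (0.128), and the +dox value passed without ventricular replicate 2 (0.0312) or atrial replicate 3 (0.0237) but was -0.13 without ventricular replicate 3 (edgeR adjusted p = 0.363). With all libraries the +dox value of Hspb2 passed with the animal as a block, at -0.25 (edgeR adjusted p = 0.0177), with the replicate block (0.0344), with the library set (0.0308) and with library totals, at -0.51 (edgeR adjusted p = 3.84e-05). The –dox value of Hspb2 with the animal as a block was -0.31 (edgeR adjusted p = 0.00411). Hspb1 differed by -0.12 in –dox and -0.33 in +dox mice without passing the test, and by -0.64 and -0.86 on TPM, where it too would be called lower. Hspb3 stood at -0.01 and 0.01. The atria also held more of the fibroblast markers, 2865 to 4629 TPM against 1144 to 2004 TPM in ventricles, and more of the macrophage markers, 171 to 334 TPM against 72.4 to 142 TPM. The part of these in the chamber differences was not tested.

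**Figure D4:**
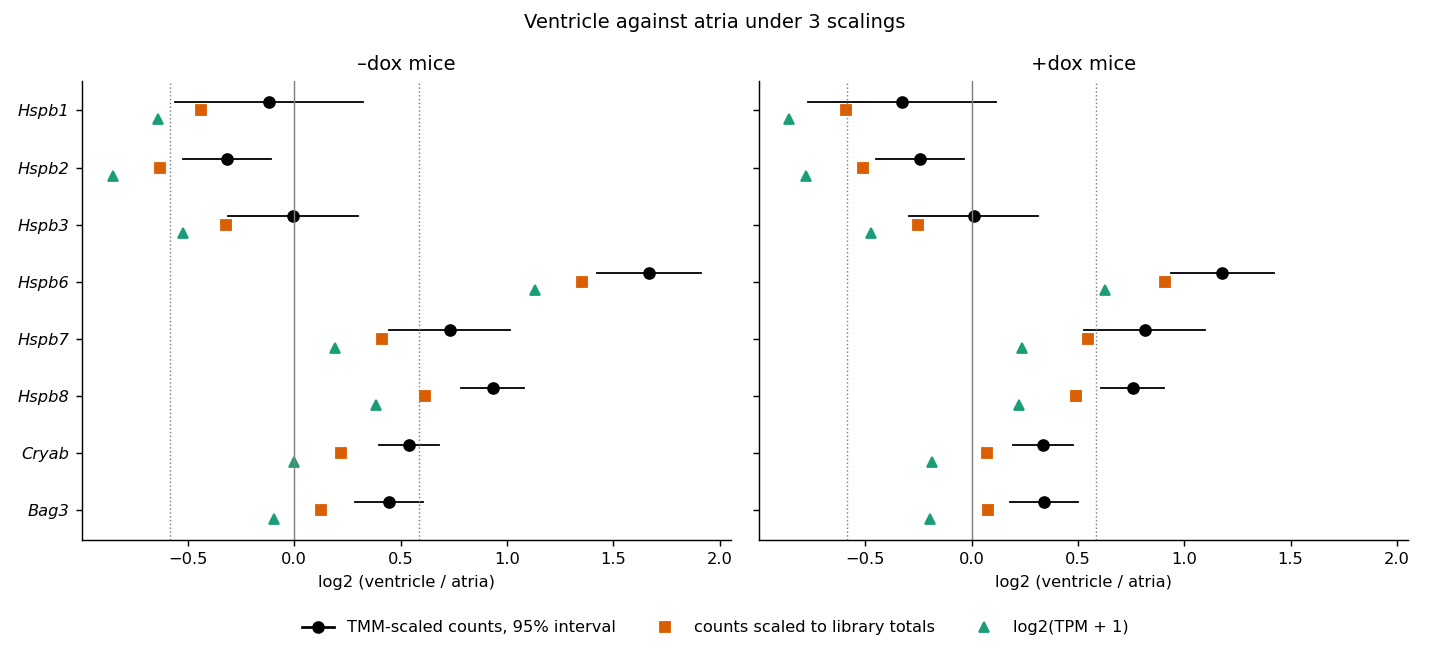
Log2 ratio of ventricle to atria for each gene in –dox (left) and +dox (right) mice under 3 scalings, with the 95% interval for the TMM-scaled counts. Dotted lines mark a fold of 1.5. Hspb6 lies to the right of the line on every scaling, between 0.63 and 1.67, while Cryab and Bag3 move across 0 on TPM in +dox mice.

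The last comparison asks whether a cohort difference was the same in both chambers. For Hspb6 the ratio of ventricular to atrial CPM within an animal was 2.5, 2.29 and 1.97 in +dox mice. It was 3.59, 3.64 and 3.68 in +/–dox mice and 2.84, 3.17 and 3.64 in –dox mice, above all +dox animals. The interaction term, the difference of the log2 changes in ventricles and atria, was 0.68 ± 0.17 (SE, edgeR adjusted p = 0.0543) for +/–dox against +dox. With the animal as a replicate block it was 0.70 ± 0.12 (SE, edgeR adjusted p = 0.00389), which would be called, as 1.2% of all genes would be. Without the block, leaving out single libraries gave 0.57 to 0.83, with an edgeR adjusted p of 0.0216 to 0.15. It would be called without ventricular +dox replicate 1, at 0.83 (edgeR adjusted p = 0.0216). For –dox it was 0.49 ± 0.17 (SE, edgeR adjusted p = 0.201), and 0.51 with an edgeR adjusted p of 0.0204 with the block, under the fold threshold. Leaving out single libraries gave 0.37 to 0.64 there without the block, with an edgeR adjusted p of 0.076 to 0.424. Without the block 0 of 8 members were called for –dox (0.764% of all genes) or +/–dox (0.489%). DESeq2 called 0 and 1. In the edgeR test 1 member, Hspb6, had an unadjusted p below 0.05 in each, beside 2120 and 2438 of the 19231 tested genes.

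The other members showed smaller differences between the chambers. The terms for +/–dox ran from -0.07 for Hspb7 to 0.36 for Hspb1, whose 95% interval was -0.26 to 0.99. For –dox they ran from -0.08 for Hspb7 to 0.21 for Hspb1. None of these had an edgeR adjusted p below 0.05 with or without the block. With the animal as a block the unadjusted p was below 0.05 for Cryab (0.025) and Hspb8 (0.0491) in –dox and for Bag3 (0.0455) and Hspb8 (0.0483) in +/–dox, with adjusted p of 0.239 to 0.332.

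The wider chaperone system was described with lists of genes. Of 4 other genes named for small heat shock proteins 1 could be tested, Hspb11, which encodes an intraflagellar transport protein. It held 3.84, 3.72 and 4.02 CPM in +dox ventricles, against 2.85, 2.61 and 2.75 CPM in –dox and 2.75, 2.68 and 2.81 CPM in +/–dox ventricles. The groups did not overlap, and Hspb11 was lower than in +dox mice by log2 differences of -0.50 (edgeR adjusted p = 0.0328) and -0.49 (edgeR adjusted p = 0.0336), under the fold threshold. In –dox atria it was called lower, at -0.61 (edgeR adjusted p = 0.0109), where 5.23% of all genes were called.

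Against +dox, members of the Hsp40 or J-domain list, which hand clients to Hsp70, were called in ventricles. Of its 12 genes 1 was higher and 1 lower in –dox ventricles, where 7.6% of all genes were called, Dnajb2 at 0.89 (edgeR adjusted p = 6.02e-08) and Dnajc7 at -0.63 (edgeR adjusted p = 3.51e-05), and the same pair was called in +/–dox ventricles at 0.93 and -0.71, beside 6.6% of all genes. Dnajb2 held 87.44, 86.98 and 94.48 CPM in –dox and 48.43, 52.36 and 44.71 CPM in +dox ventricles, without overlap, and 0.61 (edgeR adjusted p = 0.000108) was its log2 difference with both vectors. The list's median difference was 0.08 in –dox and -0.02 in +/–dox ventricles, near the 0.01 and 0.00 of all genes.

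Among the 5 other BAG genes, nucleotide exchange factors for Hsp70, 0 were called in –dox or +/–dox ventricles, beside 7.6% and 6.6% of all genes. Bag2, an inhibitor of the ubiquitin ligase that Bag3 works with, was called lower in +/–dox atria at -0.60 (edgeR adjusted p = 0.000281), where 3.99% of all genes were called. Of 13 Hsp70 and Hsp110 genes 1 was called in –dox ventricles, near the 7.6% of all genes, which was Hspa12b at 0.62 (edgeR adjusted p = 0.000334), and in +/–dox ventricles Hspa12b was higher at 0.62 and Hspa13 lower at -0.60. Hsph1, an Hsp110, was called higher than in +/–dox mice in atria with MBNL1 at 0.74 (edgeR adjusted p = 0.0049) and with both vectors at 0.77 (edgeR adjusted p = 0.00268), beside 1.21% and 1.71% of all genes. Hspa8, the constitutive Hsp70 that works with Bag3, stood at 0.18 in –dox ventricles (edgeR adjusted p = 0.112). Of 12 genes for chaperone-assisted selective autophagy, the route that takes filament proteins from Bag3 to the lysosome, 0 were called in either comparison by edgeR, beside 7.6% and 6.6% of all genes. Without the fold 0 and 4 had an adjusted p below 0.05, beside 20.9% and 21.8%. Of the 12 Hsp90 genes and co-chaperones 0 were called in either, beside the same 7.6% and 6.6%. Fkbp5, a glucocorticoid-induced co-chaperone, was called higher than in +dox mice in ventricles with both vectors at 0.87 (edgeR adjusted p = 0.0416), beside 2.65% of all genes, and in –dox atria at 0.90 (edgeR adjusted p = 0.0204).

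Of the heat shock transcription factors 3 of 4 could be tested. Hsf4 was called higher in +/–dox ventricles at 0.80 (edgeR adjusted p = 0.00294), with MBNL1 in ventricles at 0.81, in –dox atria at 0.68 and in +/–dox atria at 0.77, beside 6.6%, 2.66%, 5.23% and 3.99% of all genes. It was called lower than in +/–dox mice with MBNL2 in atria at -0.70, beside 3.24%, from levels of 1.45 to 5.03 TPM. Hsf1, the main factor of the heat shock response, stood at 0.21 in –dox ventricles (edgeR adjusted p = 0.132). Hspa1a, its inducible target, differed by 0.81 there (edgeR adjusted p = 0.287).

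Of the 12 client and anchoring proteins 1 was called in –dox ventricles and 2 in +/–dox ventricles, all higher, beside 7.6% and 6.6% of all genes. Desmin (Des), the intermediate filament that αB-crystallin binds, held 1236, 1186 and 1047 CPM in +dox ventricles, 1658, 1679 and 1956 CPM in +/–dox ventricles and 1508, 1708 and 1897 CPM in –dox ventricles. All control libraries were above +dox, and Des was called higher in +/–dox ventricles at 0.61 (edgeR adjusted p = 7.61e-05) and stood at 0.56 (edgeR adjusted p = 0.000191) in –dox ventricles. Myotilin (Myot), a Z-disc protein, was called higher at 1.19 (edgeR adjusted p = 0.000439) in –dox and at 0.74 (edgeR adjusted p = 0.0192) in +/–dox ventricles. In atria Myot was called higher in –dox than in +dox mice at 1.04 and lower with both vectors than in +/–dox mice at -0.94, beside 5.23% and 1.71% of all genes. Of 10 genes that handling of the tissue induces, Fosb was called lower than in +dox mice in +/–dox atria at -1.51 and with MBNL1 at -2.34, beside 3.99% and 0.13% of all genes, and Atf3 was called higher with MBNL2 than in +/–dox atria at 2.16, beside 3.24%.

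Between the chambers 11.2% of all genes were called higher in –dox ventricles and 13.7% lower, and 11.8% and 13.2% in +dox mice. The mitochondrial chaperonin genes Hspd1 and Hspe1, 2 of 2, were called higher in –dox ventricles at 0.73 and 0.62 and in +dox ventricles at 0.85 and 0.70. Of the 13 Hsp70 and Hsp110 genes 3 were called higher and 1 lower in –dox mice and 2 and 1 in +dox mice. They included mitochondrial Hspa9 at 0.86 and 0.89, Hspa2 at -1.39 and -1.62 and Hspa12b at 1.04 in –dox mice. Hsph1 was called higher in both cohorts, at 0.66 in +dox mice. Of the J-domain genes 2 of 12 were called higher in each cohort, Dnaja3 at 0.88 and 0.81, Dnajb5 at 0.78 in –dox mice and Dnajc7 at 0.61 in +dox mice. Of the 12 Hsp90 genes and co-chaperones 2 were called higher in each, Fkbp4 at 0.99 and 0.94, Smyd1, which helps myosin to fold, at 0.68 in –dox mice and the mitochondrial Trap1 at 0.64 in +dox mice. Of the selective autophagy genes 1 of 12 was called, Wipi1 at 0.62 in –dox mice. Of the client and anchoring proteins 4 were higher and 1 lower in –dox and 3 and 1 in +dox mice, among them Myot at 4.76 and 4.61, Vim at -0.84 and -0.68 and titin (Ttn) at 0.73 and 0.75. The handling genes Fos at -2.71 and -2.56 and Nr4a1 at -1.22 and -1.31 were called lower in both, and Fosb at -2.37 in +dox mice.

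The genes whose levels followed each member most closely were looked for among 8689 genes with a mean of at least 10 CPM, by Pearson's r over the 36 libraries after each chamber's mean was subtracted. The points share libraries, depth and cohort, and the values are a description. Hspb8 was followed most closely by Eif4g1 (r = 0.83), Capzb (r = 0.80) and Gid8 (r = 0.79), and Hspb7 by Cyb5r3 (r = 0.81), 2310022A10Rik (r = 0.81) and Olfml3 (r = 0.77). Hspb2 was followed by Cdc37 (r = 0.81), Mvb12b (r = 0.77) and Castor2 (r = 0.77), and Cryab by Tpi1 (r = 0.78), Akr1a1 (r = 0.74) and Maged2 (r = 0.74). Bag3 shared Akr1a1 with Cryab (r = 0.77) and was also followed by Rhbdf2 (r = 0.77) and Usp19 (r = 0.76). Hspb6 was followed by Fam234a (r = 0.74), Pkdcc (r = 0.71) and Usp13 (r = 0.71), and Hspb1 by Nr2f6 (r = 0.74), Trim27 (r = 0.74) and Hspa8 (r = 0.73). The values were lowest for Hspb3, with Tfrc (r = 0.66), Trak2 (r = 0.64) and Pik3r3 (r = 0.63). Among the members themselves r ran from -0.27 for Hspb1 and Hspb2 to 0.56 for Hspb2 and Hspb7 over 28 pairs, with 0.54 for Hspb6 and Cryab and 0.42 for Cryab and Bag3.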

How the data were processed

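RNA-Seq was performed on ventricles and atria of CUG960 mice, from 250 ng of RNA and with 150 bp reads. Per the labels, the authors aligned reads to mm10 with STAR 2.7.10b and quantified genes with RSEM 1.3.1 before they deposited expected counts and TPM for each library. Whether RSEM counted by strand is not given in the sources used here. The 8 genes and all gene lists were chosen with earlier results of these data known.

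Expected counts were rounded, filtered with filterByExpr, scaled with TMM factors and fitted with edgeR 4.0.16 (R 4.3.3; robust quasi-likelihood test, 12 group means over 36 libraries). A call needed a Benjamini-Hochberg adjusted p below 0.05 over 19231 genes and a fold of at least 1.5. The text names the 8 genes, the called genes of each list (at most the 3 largest changes per list and comparison; cell type markers are given as sums) and the 3 genes most like each member; Hspa8, Hsf1, Hspa1a and Hspa1b were named outside this rule, after their values were seen. The fit was tested on simulated data with log2 changes larger than those of the members within a chamber. That simulation held no set effect or outlying library and does not cover changes of the members' size. Same-numbered ventricular and atrial libraries of a cohort deviated together in 18 of 18 pairs (r = 0.24 to 0.65), and the study's sample list gives the same animals for both chambers, so that they were taken to pair by animal. Between cohorts not every same-numbered pair deviated together, and the numbers were not taken to pair. Alternatives were DESeq2 1.42.0, RLE factors, no filter, the libraries of 1 chamber, a replicate block, the library set as a term, no fold threshold and leaving out each library. Library totals, the animal as a block and limma 3.58.1 on log2(TPM + 1) were added after seeing the data. Depth was 55031987 to 97091184 counts per library, and the members held from 327 counts (Hspb3) to 437567 counts (Hspb7); for Hspb3, the lowest, counting error can be as large as the spread between replicates. Replicate libraries of a group differed by more than sampling noise.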

Additional observations from a re-analysis of the deposited data

Results flagged for a closer look

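Hspb6, the small heat shock protein Hsp20, differed between the chambers in how its level stood against +dox mice. For +/–dox against +dox, all ventricular libraries lay above and all atrial libraries below their +dox counterparts, and the interaction term was 0.68 on the log2 scale (edgeR adjusted p = 0.0543, unadjusted p = 0.000412), or 0.70 with the animal as a block (edgeR adjusted p = 0.00389), where it would be called. For –dox against +dox the term was 0.49 (edgeR adjusted p = 0.201, unadjusted p = 0.00779), or 0.51 with the block (edgeR adjusted p = 0.0204), under the fold threshold. These are the same values as in the report, and without the block no other term of the 8 genes had an unadjusted p below 0.05.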

How the results depend on the processing

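Of 342 counts of called members recomputed under the alternatives, 323 stayed within 1.5 times the reported count. Without the fold threshold the counts against +dox were 2 (–dox), 3 (+/–dox), 2 (MBNL1), 1 (MBNL2) and 3 (MBNL1+MBNL2) in ventricles, 1 for MBNL1+MBNL2 against +/–dox in atria, and 6 (–dox) and 5 (+dox) between chambers. Leaving out single libraries gave 0 to 1 for MBNL1 and for MBNL1+MBNL2 against +dox in ventricles and 0 to 1 for the chamber difference of +/–dox. That last count was 1 with DESeq2, RLE factors, the replicate block, the library set, library totals, the animal block and TPM. The replicate number as a block gave 1 for MBNL1+MBNL2 against +/–dox in atria (Hspb1); same numbers had r over 0.1 in 104 of 180 pairs between cohorts (median 0.17) and other numbers in 107 of 360 (median -0.07), so that same numbers deviated together more often but not in every pair, and were not taken to pair; beside these the block changed no count by over 1.5 times. Library totals gave 2 members called between the chambers in +dox mice (Hspb1, Hspb6). Of 614 values of single members, 493 kept direction and side of the threshold, 60 no longer passed, 58 newly passed and 3 reversed. The reversals were between ventricles and atria on TPM, Bag3 at -0.10 in –dox and -0.19 in +dox mice and Cryab at -0.19 in +dox mice, where the median of all genes moved as well. With library totals neither gene reversed, at 0.13 and 0.08 for Bag3 and 0.22 and 0.07 for Cryab in –dox and +dox mice. The TPM fit changed the scaling, the length adjustment and the test at once, and the cause was not tested. With 3 libraries per group, 1 library decided most calls by adjusted p in ventricles, and the overlap of Hspb2 and Cryab limits the levels of Hspb2.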
